A study of Mus musculus with 384 samples.

Results

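RP105, MD-1 and Tlr4 were read in single common lymphoid progenitors (CLPs) of mouse bone marrow, as the assays Cd180 (RP105), MD.1 (gene symbol Ly86) and CD284 (the CD name of TLR4). These 3 assays were chosen by name from the 96 on the panel. The cells came from wild-type mice of strain C57/Bl6 and were sorted as Lin- B220- Flt3+ Il7r+ Kitlow Sca1low, the only group, with no treatment or other genotype to compare. They filled 4 plates, P0 to P3, each with 90 single-cell wells, 4 wells without reverse transcriptase (no-RT), 1 well of 10 cells and 1 of 20 cells. After quality control 347 of 360 cells were kept, 86 on P0 and 87 on each other plate. The labels do not say whether plates came from separate animals, so the errors and p-values over plates rest on how plates differ from each other, which can be technical alone.

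RP105 is a cell surface receptor with leucine-rich repeats like those of TLR4, the receptor for bacterial lipopolysaccharide, but without the TIR signalling domain inside the cell. It is held in a complex with MD-1, a small secreted protein that RP105 needs to reach the surface, much as TLR4 pairs with MD-2. RP105 is known as a regulator of B cell responses and of TLR4 signalling, and TLR4 on bone marrow progenitors lets them sense bacterial products directly.

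The value of each well is a Ct, the PCR cycle at which a product appears, so that a lower Ct means more cDNA and 1 cycle is a factor of 2. A product was called at a Ct below 28, and the level of a gene is 28 minus its Ct, in cycles. Kept cells had a product for 22 to 54 assays, with a median of 43, and no-RT wells for a median of 6.5. Kit was found in 97.4% ± 1.09 of cells (SD, n = 4 plates). The erythroid factor gene Gata1 was found in 0.575% ± 0.664. Of the T cell genes, Cd3e and Cd2 were found in 0 of 347 cells, but Cd4 in 38 (10.9% ± 3.54) and Cd5 in 34 (9.78% ± 6.25). Neither Cd4 nor Cd5 gave a product in the 16 no-RT wells. The granulocyte receptor gene Csf3r was found in 48.7% ± 4.11 and the myeloid genes Csf1r and Itgax in 22.2% ± 2.13 and 23.1% ± 3.33; Cd68 also gave a product in 11 of 16 no-RT wells. The 10-cell well of P0 stood apart, with a product for 29 assays against 68 to 78 in the other pooled wells, and is given by itself wherever it enters.

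Cd180, the receptor, was found in most cells on every plate. It gave a product in 72 of 86 cells on P0 (83.7%), 66 of 87 on P1 (75.9%), 70 of 87 on P2 (80.5%) and 66 of 87 on P3 (75.9%). The mean was 79.0% ± 3.83 (SD, n = 4 plates), and the exact 95% binomial intervals, which cover counting error only, overlapped between all plates, for example 74.2% to 90.8% on P0 and 65.5% to 84.4% on P1. Its Ct ran from 13.44 to 24.00 over the 274 cells with a product, with plate medians of 15.40, 16.02, 16.02 and 16.45 on P0 to P3. Only 2 cells, both on P0, had a Ct over 20.

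Ly86, which encodes MD-1, was found in a little over every other cell. It gave a product in 46 of 86 cells on P0 (53.5%), 50 of 87 on P1 (57.5%), 43 of 87 on P2 (49.4%) and 52 of 87 on P3 (59.8%), a mean of 55.0% ± 4.55. The plate with the highest Ly86 share, P3, shared the lowest share of Cd180 with P1. The 191 cells with Ly86 had a Ct between 12.80 and 23.29, with plate medians of 14.75, 15.04, 14.83 and 15.51. Again 2 cells had a Ct over 20, and 1 of the 13 wells left out by quality control held a Ly86 product, against 0 for Cd180 and 0 for CD284.

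CD284 was found in the fewest cells and on 3 of the 4 plates. It gave a product in 16 of 86 cells on P0 (18.6%), 20 of 87 on P1 (23.0%), 0 of 87 on P2 and 12 of 87 on P3 (13.8%). A count of 0 of 87 cells allows a share of up to 3.45% at 3 counts, and the exact 95% interval reaches 4.15%, both below the share of each other plate. The mean was 18.5% ± 4.60 over the 3 plates with a product and 13.8% ± 9.97 over all 4. The 48 cells with CD284 had a Ct of 14.89 to 18.85, with plate medians of 16.65, 16.68 and 17.26 on P0, P1 and P3, and none had a Ct over 20. Of the 9 assays that had no product in any cell of 1 or more plates but a product elsewhere, CD284 was the only one found in at least 5% of cells on each of its other plates. The 10-cell and 20-cell wells of P2 also had no CD284 product; whether the assay worked on P2 cannot be told apart from its absence in those cells. For the 3 genes no single-cell value lay between 28 and 40, the value for no product, so no cell lay close above the threshold.

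**Figure D1:**
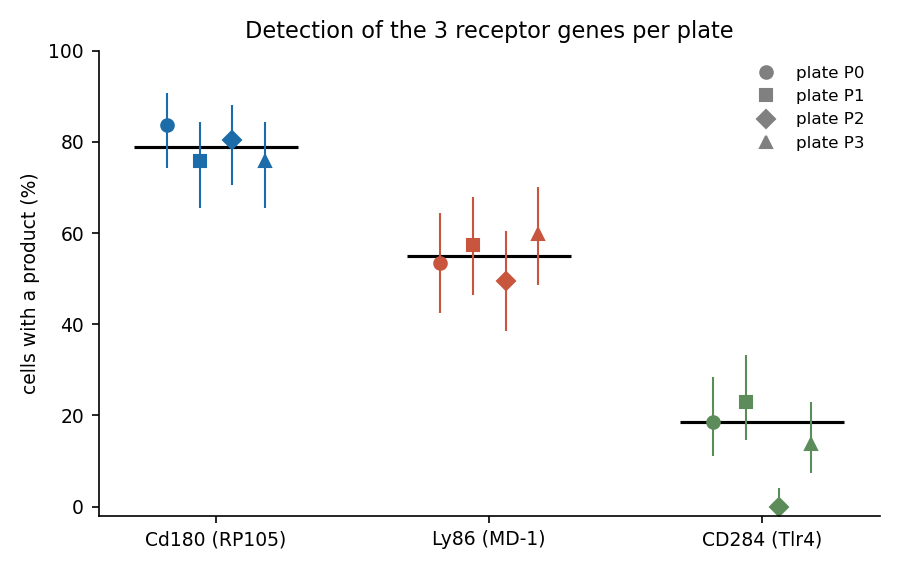
The share of kept cells with a product (y axis, percent) for Cd180, Ly86 and CD284, with 1 point for each plate, its exact 95% binomial interval and the mean as a line (for CD284 over P0, P1 and P3). Cd180 lies between 75.9% and 83.7%, Ly86 between 49.4% and 59.8%, and CD284 between 13.8% and 23.0% except on P2, where it is at 0.

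The ranges of the 3 shares over plates did not overlap, in the order Cd180, Ly86, CD284. The sensitivity of each assay is not known, so this orders how often each product was found and not how much RNA there was. No product of any of the 3 appeared in the 16 no-RT wells. With a no-RT arm at 0 on every plate, a test of cells against no-RT wells does little more than restate that count. Its adjusted p (limma on arcsine-transformed shares, 4 plates against 4) was 4.5e-09 for Cd180, 1.14e-08 for Ly86 and 0.0222 for CD284, and 84.1% of the 88 assays tested were called higher in cells. With the plate as a replicate block the differences were the same, 1.10, 0.84 and 0.33 on the arcsine scale, with adjusted p of 1.03e-05, 1.29e-05 and 0.0406. The CD284 call was lost without P0, P1 or P3, and without P2 its difference was 0.44 (adjusted p = 8.44e-05).

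The pooled wells gave a check of the Ct scale. In the 20-cell wells Cd180 had a Ct of 11.69, 11.49, 11.52 and 12.12 on P0 to P3, which differed by -0.11 ± 0.25 cycles from 20 times the mean single cell of the plate. Ly86 had a Ct of 11.22, 10.91, 11.92 and 11.39, a difference of -0.08 ± 0.34 cycles. CD284 had 15.86, 14.23 and 14.86 on P0, P1 and P3, a difference of -0.09 ± 0.92 (n = 3). For Cd180 and Ly86, 20 cells thus differed from 20 average single cells by less than the spread between plates in the mean. In the 10-cell wells Cd180 had 13.82, 11.68 and 13.43 on P1 to P3 and Ly86 13.37, 11.64 and 12.59. These wells lay farther from 10 times the mean single cell, by -1.24, 0.89 and -0.45 cycles for Cd180 and -1.14, 0.82 and -0.15 for Ly86. On P2 the Ly86 Ct of the 10-cell well, 11.64, was earlier than that of the 20-cell well, 11.92. The 10-cell well of P0 had no Cd180 and no CD284 product, and its Ly86 Ct was 26.36, later than that of every single cell with Ly86.

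**Figure D2:**
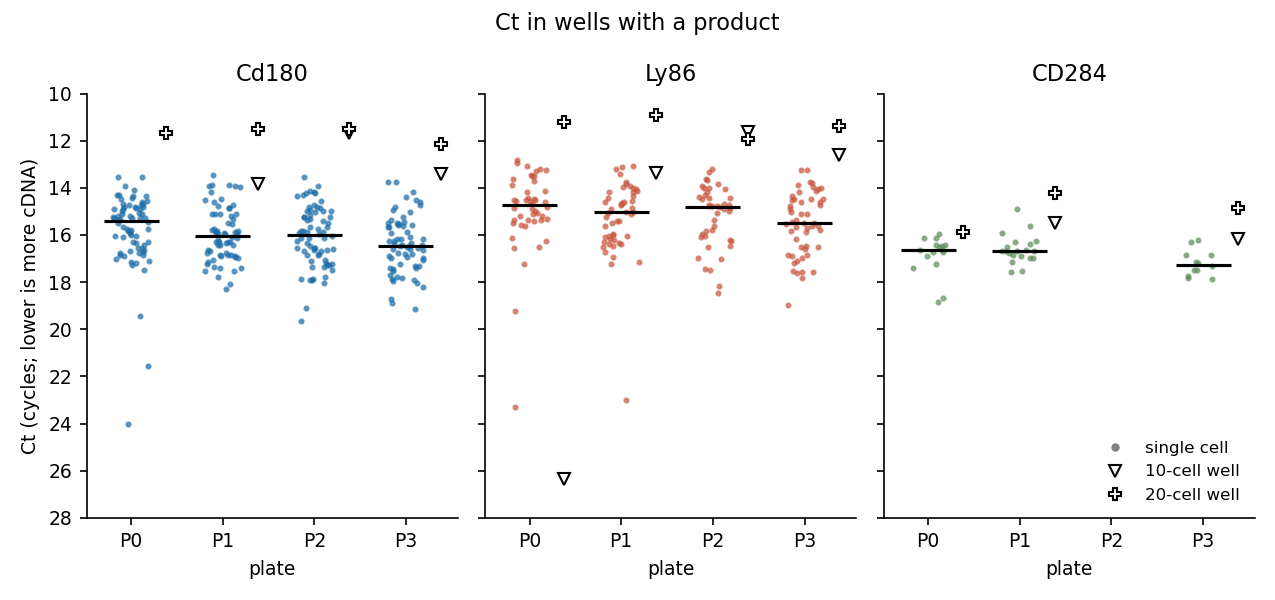
The Ct (y axis, in cycles, turned so that more cDNA is up) of each kept cell with a product on plates P0 to P3, with the plate median as a line, and of the 10-cell and 20-cell wells. Most cells of a gene lie within a few cycles of the plate median, CD284 has no point on P2, and the Ly86 value of the 10-cell well of P0 lies at 26.36.

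Cd180 (RP105) and Ly86 (MD-1) are both protein-coding genes on mouse chromosome 13, and Tlr4 is on chromosome 4. In the RefSeq annotation of GRCm38.p6 Cd180 lies at chr13:102693547-102706631, Ly86 at chr13:37345345-37419036 and Tlr4 at chr4:66827551-66846581. The positions of the assays within these genes were not analysed here. The 250 bases before an annotated start of the receptor and of its partner, on the + strand, are shown as the regulatory sequence of the pair whose co-detection is measured below. Capitals mark GGAAG on either strand, the core letters of ETS family sites, which 64.1% of 32851 promoters of this length hold.

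Ly86, chr13:37345095-37345344: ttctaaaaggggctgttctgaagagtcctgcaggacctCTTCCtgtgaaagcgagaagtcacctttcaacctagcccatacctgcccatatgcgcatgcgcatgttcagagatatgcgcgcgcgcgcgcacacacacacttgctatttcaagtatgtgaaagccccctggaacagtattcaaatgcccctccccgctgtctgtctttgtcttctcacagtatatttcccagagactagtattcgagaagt

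Cd180, chr13:102693297-102693546: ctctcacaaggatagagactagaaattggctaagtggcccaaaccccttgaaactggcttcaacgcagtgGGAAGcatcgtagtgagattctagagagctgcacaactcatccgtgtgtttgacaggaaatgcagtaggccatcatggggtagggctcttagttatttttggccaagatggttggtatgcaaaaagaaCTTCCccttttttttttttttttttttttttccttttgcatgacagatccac

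The Ly86 stretch held 1 such match, 212 bases before the start, and that of Cd180 held 2, 180 and 52 bases before it. Cd180 has another annotated start, with the window chr13:102693308-102693557, not shown. The same matches lie 191 and 63 bases before that start. None of these windows held CCCNNGGG, core letters of EBF sites found in 11.8% of promoters, nor the E-box CAGGTG, found in 17.2%, on either strand. These are matches of letters in a window and say nothing of binding.

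Whether the receptor and its partner were in the same cell was the first question on the pair. Both products were found in 148 of 347 cells, 40 on P0, 37 on P1, 32 on P2 and 39 on P3, a mean of 42.7% ± 4.25. If the 2 genes were independent within plates, 150.5 cells would hold both. Cd180 without Ly86 was found in 126 cells (123.5 by independence), Ly86 without Cd180 in 43 (40.5) and neither in 30 (32.5). The cells with the partner alone, 12.4% ± 3.76, were thus about as many as the shares give. Cd180 was found in 77.6% ± 6.26 of cells with Ly86 and in 80.5% ± 4.10 of cells without it.

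Co-detection was measured as the log2 odds ratio within a plate, positive where 2 products are found together more often than their shares give and negative where less often, with a count of 0.5 added to each cell of the 2 by 2 count. It was tested over plates with limma for all 1176 pairs of the 49 genes found in 5% to 95% of cells, of which 4.76% were called at an adjusted p under 0.05, 3.06% positive and 1.7% negative. For Cd180 and Ly86 the log2 odds ratio was 0.70 on P0, -0.32 on P1, -1.07 on P2 and -0.15 on P3. The sign differed between plates, and the mean was -0.21 ± 0.73 (SD, n = 4; 95% interval -1.17 to 0.76; adjusted p = 0.873). An association in either direction within that interval was not detectable with 4 plates.

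Cd180 and CD284 also showed no called relation. Of the 260 cells of P0, P1 and P3, 40 held both against 37.7 by independence, and the log2 odds ratios were -0.42, 0.90 and 0.54 (mean 0.34 ± 0.68, n = 3; 95% interval -0.79 to 1.47; adjusted p = 0.816). Ly86 and CD284 were in the same cell in 19 of these 260 cells, 3 on P0, 11 on P1 and 5 on P3, against 27.2 by independence. Their log2 odds ratio was negative on each plate, -2.61, -0.20 and -1.18, near 0 on P1 and lowest on P0. The mean of -1.33 ± 1.21 (95% interval -2.59 to -0.07) had an unadjusted p of 0.0404 and did not pass the test over all pairs (adjusted p = 0.263 in limma).

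Over the 3 genes together, the most frequent state on P0, P1 and P3 was Cd180 with Ly86 and without CD284, in 102 cells (94.6 by independence). Cd180 alone was found in 62 (71.8), Ly86 alone in 27 (26.2) and none of the 3 in 21 (19.5). All 3 products were found in 14 cells (21.3), 9 of them on P1. Of the cells with CD284, 26 held Cd180 without Ly86 (16.3), 5 held Ly86 without Cd180 (5.90) and 3 held neither (4.43). These states are counts with no test of their own.

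**Figure D3:**
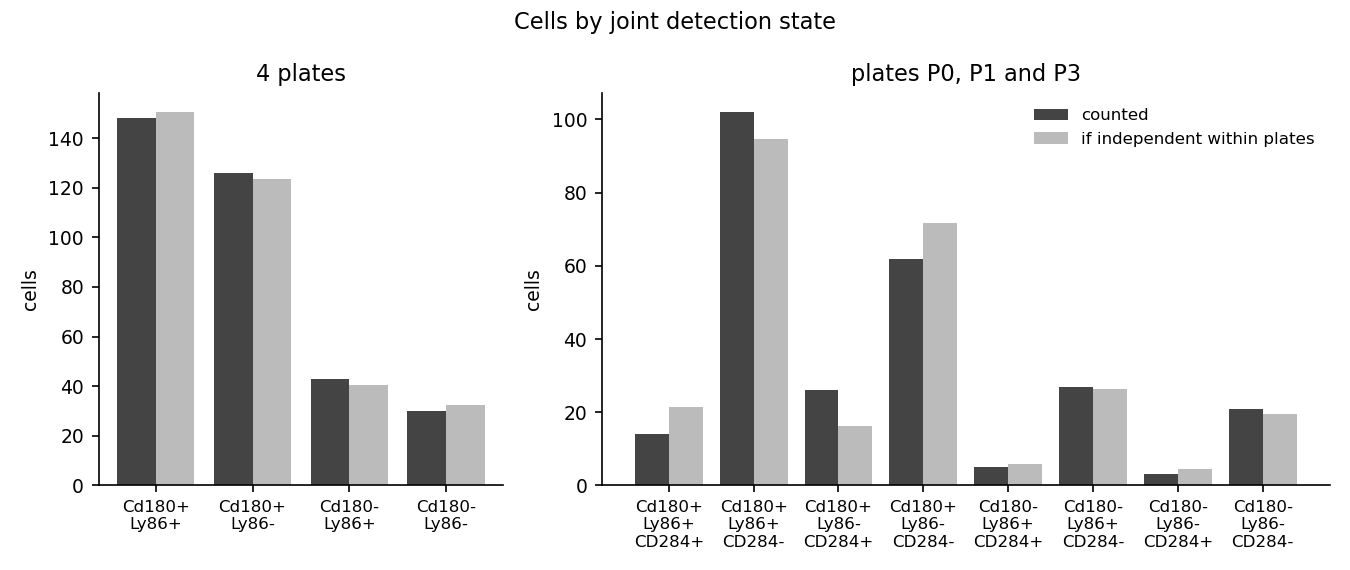
Cells in each joint state (y axis, number of cells): counted, dark bars, and expected if the genes were independent within plates, light bars; at left Cd180 and Ly86 in 347 cells of 4 plates, at right all 3 genes in 260 cells of P0, P1 and P3. Counted and expected bars of Cd180 and Ly86 are close, 148 against 150.5 for both, and the state with Cd180 and CD284 but no Ly86 holds 26 cells against 16.3.

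Among cells with a product, the level of one of the 3 genes did not differ with the presence of another by more than the test could show. The Cd180 level was 12.02 ± 0.32 in cells with Ly86 and 11.89 ± 0.41 in cells without, with differences of -0.35, -0.02, 0.87 and 0.04 on P0 to P3 (mean 0.14, 95% interval -0.46 to 0.73; adjusted p = 0.825, limma over 2421 ordered pairs). The Ly86 level was 12.80 ± 0.29 with Cd180 and 12.54 ± 0.32 without (0.26, interval -0.30 to 0.82, adjusted p = 0.648). With against without CD284, over 3 plates, the Ly86 level differed by 0.49 (interval -0.49 to 1.47) and that of Cd180 by 0.27 (-0.27 to 0.81). The CD284 level differed by -0.05 with against without Ly86 (-0.85 to 0.75). These 3 intervals are wide and none of the differences was called. Of the differences in level with any other gene, 0 of 48 were called for Cd180, 0 of 47 for Ly86 and 0 of 20 for CD284, beside 0.537% of all pairs. At an unadjusted p under 0.05 there were 4, 2 and 0. The largest for Ly86 was a level of 12.94 ± 0.33 in cells with Ly6d and 11.97 ± 0.38 in cells without, higher on each of the 4 plates by 0.98 ± 0.52 (adjusted p = 0.197).

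In the 148 cells with both products, the levels of Cd180 and Ly86 correlated within plates at a Pearson r of 0.49 and a Spearman rho of 0.28. This is a description of cells that share a plate and a reaction each. Both levels also correlated with the mean level of the 4 reference genes of the same cell (r = 0.55 and 0.52), and after subtracting that level r was 0.36. The same level is taken from both genes, which by itself adds a shared part, so this r is not free of it. By plate r was 0.71, 0.17, 0.42 and 0.33 on P0 to P3, and rho was 0.25, 0.17, 0.39 and 0.32. After the subtraction r by plate was 0.41, 0.30, 0.26 and 0.42, higher than before on P1 and P3. P0, where r before the subtraction and rho were farthest apart, holds both Cd180 cells and 1 of the 2 Ly86 cells with a Ct over 20.

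Ly86 was found more often in cells with the B lineage genes Ly6d and Pax5 and less often in cells with the stem cell genes Hoxa9 and Cd34. Of its 48 pairs 5 were called, 3 positive and 2 negative, or 10.4% beside 4.76% of all pairs. At an unadjusted p under 0.05 there were 5 positive and 5 negative pairs. The positive ones were Cd38, Pax5 and Ly6d, and the negative ones Hoxa9 and Cd34. They held to different degrees when a plate was left out, as given for each, and the Ly6d and Pax5 calls were lost without any 1 plate. The B lineage assays Ebf1, FOX01 and TCF3E2A and the stem gene Fli1 were not called with Ly86, and TCF3E2A had a mean below 0 (-0.59).

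Ly6d, a surface protein that marks the B-biased part of the CLP gate, was found with Ly86 more often than the shares give. Ly86 was found in 63.4% ± 3.00 of cells with Ly6d, from 60.3% to 66.7% over plates, and in 35.1% ± 6.07 of cells without it, from 27.6% to 41.7%. The groups did not overlap, and 155 cells held both against 134.7 by independence. The log2 odds ratios were 1.34, 1.84, 1.93 and 1.45 (mean 1.64 ± 0.29; adjusted p = 0.0416, limma). Leaving out any 1 plate ended the call, with adjusted p from 0.0692 to 0.151.

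Pax5, the transcription factor that commits cells to the B lineage, was found in 90 cells, 69 of them with Ly86 against 49.7 by independence. Ly86 was found in 77.0% ± 6.32 of cells with Pax5 (68.0% to 81.8%) and in 47.6% ± 7.54 of cells without (39.4% to 56.5%), again without overlap. The log2 odds ratios were 2.40, 1.63, 2.57 and 0.67, lowest on P3 (mean 1.82 ± 0.87; adjusted p = 0.0433). This call too was lost without any 1 plate (adjusted p 0.0863 to 0.161). Ebf1, the factor that acts upstream of Pax5, had log2 odds ratios of 1.89, 0.75, 0.81 and 0.74 with Ly86, positive on each plate, and did not pass (mean 1.05 ± 0.56; adjusted p = 0.230).

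Cd38, an enzyme on the surface of lymphocytes, was found in 56 cells, 46 with Ly86 against 31.1 by independence. Ly86 was found in 81.5% ± 6.49 of cells with Cd38 and in 49.9% ± 3.40 of cells without, and the plates of one group did not reach those of the other. The log2 odds ratios were 1.62, 2.20, 1.71 and 2.47 (mean 2.00 ± 0.40; adjusted p = 0.0196). The adjusted p was 0.0907 without P1 and 0.117 without P3.

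On the other side, Hoxa9, a homeobox factor of stem and multipotent progenitors, was found with Ly86 less often than the shares give. Ly86 was found in 50.0% ± 4.67 of the 298 cells with Hoxa9 (45.5% to 54.5%) and in 85.0% ± 6.05 of the 49 without it (80.0% to 92.3%). The log2 odds ratios were -3.25, -1.51, -2.03 and -2.34 (mean -2.28 ± 0.73; adjusted p = 0.0136, limma). Without P1 the adjusted p was 0.0583 and without P3 it was 0.104. With no quality control of wells the value was -1.05 and the call was lost (0.0931).

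Cd34, the stem and progenitor surface marker, was missing in 19 cells only, and 17 of them held Ly86. Ly86 was found in 53.1% ± 4.25 of cells with Cd34 and in 90.0% ± 11.5 of cells without. The log2 odds ratios were -1.48, -1.24, -2.94 and -3.31 (mean -2.24 ± 1.04; adjusted p = 0.0221), and the call was lost without P1 (0.0627), P2 (0.0917) or P3 (0.140). It rests on few cells, and with no quality control of wells the value was -0.23 (adjusted p = 0.76). Fli1, the third stem gene that entered the test, gave -0.60, 0.65, 0.07 and -0.31 with Ly86 (mean -0.05 ± 0.54; adjusted p = 0.963).

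The other genes at the ends of the Ly86 order were not called. Csf3r, the receptor of granulocyte colony-stimulating factor, had -1.31, -2.20, -1.39 and -1.12 (mean -1.50 ± 0.48; adjusted p = 0.0662), and Ly86 was found in 42.1% ± 5.41 of cells with it and in 67.6% ± 6.50 of cells without. This pair passed under 6 of the 11 other settings tried. Gfi1, a transcriptional repressor of blood cell development, had -1.22 ± 0.51 (adjusted p = 0.147). Gfra2, which encodes a neurturin receptor, had 0.96 ± 0.49 (adjusted p = 0.264). By the mean log2 odds ratio the genes most like Ly86 in the cells they were found in were Cd38, Pax5 and Ly6d, over 4 plates.

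Cd180 had no called pair among 48, at 3 positive and 1 negative with an unadjusted p under 0.05. Of its 5 B lineage pairs Pax5 had -0.995 ± 1.28 (-1.39, -1.99, -1.48 and 0.88 by plate; adjusted p = 0.361), Ebf1 -0.42 ± 0.88, Ly6d -0.21 ± 0.28, FOX01 -0.0707 ± 0.95 and TCF3E2A 0.30 ± 1.11. Its 3 stem pairs had means above 0, Fli1 0.78 ± 0.86, Hoxa9 0.50 ± 0.99 and Cd34 0.47 ± 1.38. None of these had the same sign on all 4 plates. The lowest value was that of Cd72, a B cell co-receptor, at -1.07 ± 1.02 (adjusted p = 0.274), and the other low values were those of Klrb1c, which encodes NK1.1, at -0.67 and Gfi1 at -0.43.

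The genes most like Cd180 by this measure were CD90.2, the Thy1 antigen of T cells (1.66 ± 1.85; adjusted p = 0.176), the tetraspanin Cd9 (1.39 ± 2.26; adjusted p = 0.336) and Itgax, the integrin CD11c (1.31 ± 1.59; adjusted p = 0.263). The T cell costimulator CD278 (ICOS) followed at 0.98 and was the only one of the 5 highest with a positive value on each plate (1.35, 0.48, 0.89 and 1.19; adjusted p = 0.245). Tnfsf8, the CD30 ligand, was at 0.92 with 3.08 on P0 and -0.27 on P3. Cells with Cd180 had a product for 41.3 ± 0.440 other assays and cells without it for 39.6 ± 0.945. The mean reference level was higher in cells with it by 0.49 ± 0.36 cycles. The 11 other settings tried include strata of cells by the number of assays and by the reference Ct. Over them the means ran from 1.18 to 1.93 for CD90.2, from 0.995 to 1.70 for Cd9 and from 0.94 to 1.58 for Itgax. Those of CD278 ran from 0.86 to 1.30 and those of Tnfsf8 from 0.58 to 1.20. The part of the assay number and reference level in the positive values was not tested beyond these settings.

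CD284 had 1 called pair among 48, or 2.08%, which is no more than the 4.76% of all pairs. The pair is given as a single value. CD284 was found less often than the shares give in cells with Bst1, the gene of the stromal antigen CD157 that B progenitors carry. Of the 39 cells with Bst1 on P0, P1 and P3, 1 held CD284, against 7.11 by independence. CD284 was found in 2.56% ± 4.44 of cells with Bst1 and in 21.2% ± 5.15 of cells without (16.4% to 26.7%). The log2 odds ratios were -1.14, -3.21 and -2.56 (mean -2.30 ± 1.06, n = 3; adjusted p = 0.0399, limma). The adjusted p was 0.253 without P1 and 0.223 without P3. With P2 counted in, the value was -1.20 (0.468). CD284 has no product there, so the P2 value follows from the Bst1 share and the added 0.5 alone and cannot test the pair.

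The other low pairs of CD284, after Ly86, were Klf4, a transcription factor of monocytes, at -1.25 ± 1.69, Ebf1 at -1.05 ± 0.14 and Klrb1c at -0.93 ± 0.50. Ebf1 was close to the same on each plate (-1.03, -1.20 and -0.93) and did not pass (adjusted p = 0.296). Pax5 was at -0.40 ± 0.18 and Ly6d at -0.31 ± 0.58. The stem genes had positive means, Hoxa9 1.69 ± 2.06 (2.95, -0.69 and 2.79; adjusted p = 0.249), Fli1 0.91 ± 0.93 and Cd34 0.85 ± 1.23, each with a plate below 0.

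The genes most like CD284 were Tnfrsf4 (OX40, a costimulatory receptor), Itgax and Hoxa9, over 3 plates. Tnfrsf4 had 0.77, 4.19 and 2.27 (mean 2.41 ± 1.71; adjusted p = 0.0631) and was found in 21 of the 260 cells, 8 with CD284 against 3.47 by independence. Itgax had 1.53, 1.20 and 2.49 (mean 1.74 ± 0.67; adjusted p = 0.0922). CD284 was found in 34.5% ± 1.02 of cells with Itgax and in 14.0% ± 5.12 of cells without, with no overlap between plates. Both passed under 6 other settings each. Cd5, a T and B1 cell surface protein, was at 1.49 ± 2.98 with -1.16 on P0 and 4.72 on P3, and Cd244a, the SLAM family receptor 2B4, at 1.34 ± 1.65. Cells with CD284 had a product for 1.68 ± 0.45 more other assays than cells without it.

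**Figure D4:**
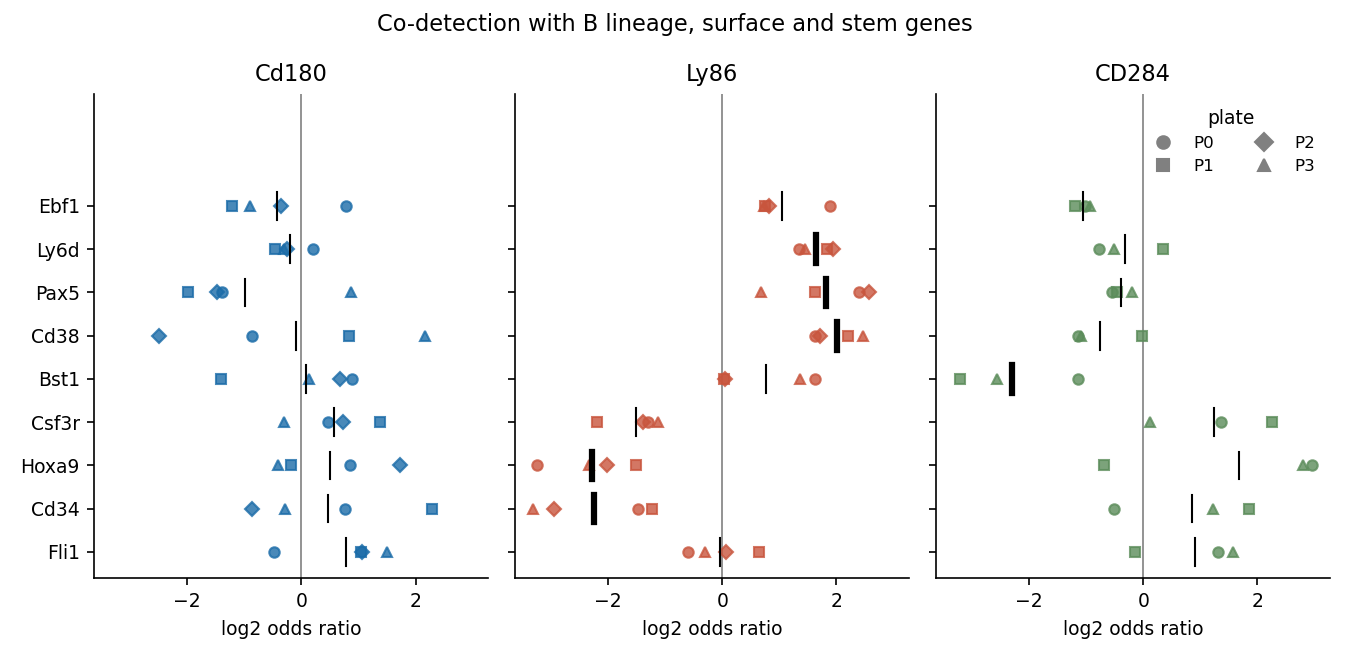
The log2 odds ratio of co-detection (x axis) of Cd180, Ly86 and CD284 with 9 B lineage, surface and stem genes (rows), 1 point for each plate and the mean as a bar, thick where called. The points of Ly86 lie right of 0 on each plate for Ly6d, Pax5 and Cd38 and left of it for Hoxa9, Cd34 and Csf3r, while most rows of Cd180 straddle 0.

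The 3 genes were then set against each other by the difference of their log2 odds ratios with a given other gene, a test added after the values were seen, over all 55272 such differences, of which 4.38% were called. Of the 141 between these 3 genes 5 were called, or 3.55%, which is no more than that background. They are given as single values. Ly86 was lower than Cd180 with Hoxa9 (difference -2.78 ± 1.36, n = 4; adjusted p = 0.035, limma) and with Cd34 (-2.72 ± 0.68; adjusted p = 0.0246), on each of the 4 plates. The Hoxa9 call was lost without any 1 plate (0.0546 to 0.149) and that of Cd34 without P0 (0.069), P1 (0.11) or P3 (0.109). With the B genes Ly86 was above Cd180 by 2.81 ± 2.02 for Pax5 (adjusted p = 0.057), 1.85 ± 0.52 for Ly6d (0.111) and 1.47 ± 0.41 for Ebf1 (0.207), none of them called. The Pax5 difference passed without P3 (3.82; 0.0251) and under 7 of the 11 other settings tried.

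Against CD284, Ly86 was higher by 3.31 ± 0.58 with Bst1 (n = 3; adjusted p = 0.0239) and by 2.85 ± 0.67 with Cd38 (0.0469) and lower with Hoxa9 (-4.05 ± 2.85; 0.0377). Each of these was lost without P0 and without P3, the Bst1 and Cd38 ones also without P1. All 3 were also lost where P2 was counted in, but there the CD284 part is set by the other gene's share and the added count. Leaving out P2, where CD284 adds no value, moved the Cd38 one to 0.0545. Between Cd180 and CD284 no difference was called; those with an unadjusted p under 0.05 were Bst1 (2.18 ± 0.46; adjusted p = 0.118) and Tnfrsf4 (-2.03 ± 1.36; 0.183).

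The B lineage genes of the panel also sort the cells into 4 classes, which use the same genes as the pairs above and so describe the values without a further test. Ly86 was found in 20 of the 62 cells with none of Ebf1, Ly6d and Pax5 (32.5% ± 7.11, mean and SD over plates), in 31 of 66 with only Ebf1 or only Ly6d (46.1% ± 6.17), in 71 of 129 with both and no Pax5 (54.6% ± 8.78) and in 69 of 90 with Pax5 (77.0% ± 6.32). The lowest plate of the Pax5 class, 68.0%, was above the highest plate of each other class, of which the next was 65.7%, while neighbouring classes below it overlapped. Cd180 was found in 84.3% ± 6.69, 82.6% ± 8.27, 81.9% ± 13.0 and 69.5% ± 12.3 of the same classes, with all 4 overlapping. CD284 was found in 22.2% ± 6.94, 23.1% ± 6.70, 17.1% ± 4.15 and 14.6% ± 3.20, again overlapping. Cd180 and Ly86 together were found in 29.7% ± 8.87 of cells with none of the B genes and in 54.4% ± 7.57 of cells with Pax5, ranges of 23.8% to 42.9% and 45.5% to 63.6%. The median number of other assays found per cell was 40 or 41 in each class for Ly86 and for Cd180.

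**Figure D5:**
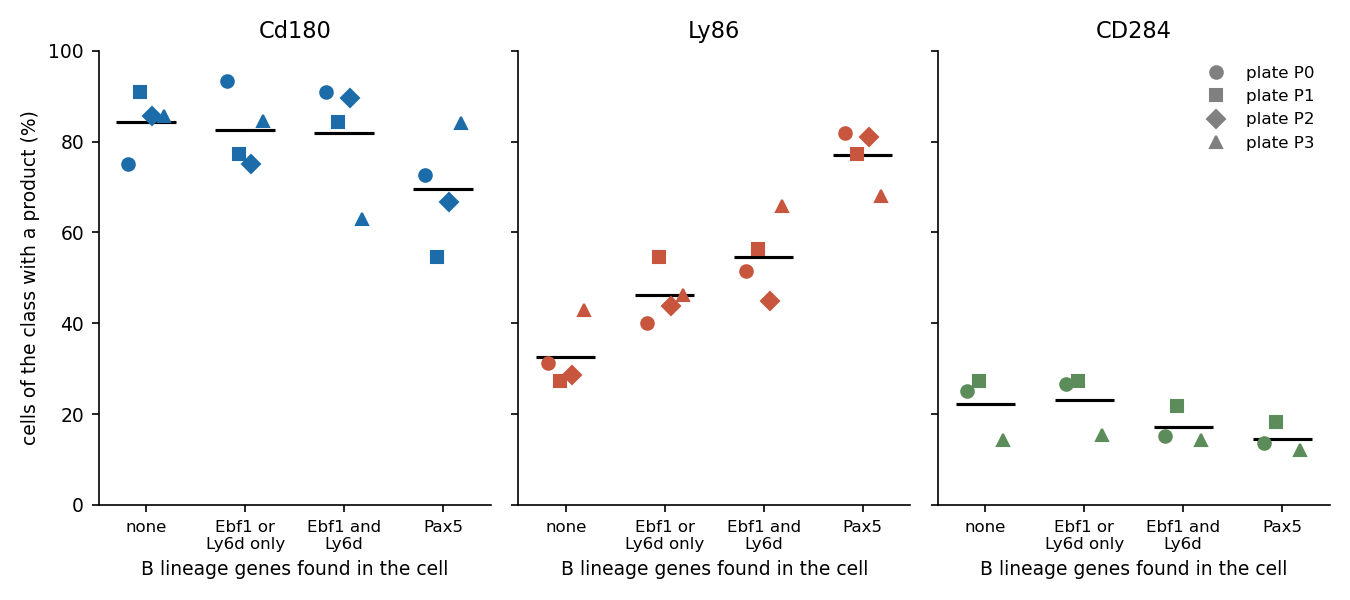
The share of cells with Cd180, Ly86 or CD284 (y axis, percent) in 4 classes of cells by the B lineage genes found in them (x axis), 1 point for each plate and the mean as a line. The Ly86 means run from 32.5% to 77.0%, the Cd180 means from 84.3% to 69.5% with overlapping plates, and CD284 stays below 30% in each class.

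Within these classes, the relation of Ly86 to Hoxa9 was seen on both sides of Ly6d. Among cells with Ly6d, Ly86 was found in 119 of 202 with Hoxa9 (58.9%) and in 36 of 42 without (85.7%), and among cells without Ly6d in 30 of 96 (31.3%) and 6 of 7. Among the 62 cells with none of the 3 B genes it was found in 15 of 56 with Hoxa9 and in 5 of 6 without. Cd38 gave the same order, with Ly86 in 7 of 9 cells with Cd38 and 13 of 53 without in that class, and in 23 of 25 and 46 of 65 in the Pax5 class. The 19 cells without Cd34 were spread unevenly, with 13 in the Pax5 class and 0 in the class with Ebf1 and Ly6d. In the Pax5 class Ly86 was found in 58 of 77 cells with Cd34 (75.3%) and in 11 of 13 without (84.6%), closer to each other than over all cells. All 39 cells with Bst1 held Ly6d, and among cells with Ly6d CD284 was found in 1 of 39 with Bst1 and in 32 of 147 without (21.8%). The counts are pooled over plates and several are small.

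Of the gene lists drawn up for the tissue, few members were on the panel. Of 20 B lymphoid genes 10 were on it and 5 entered the pair test, counting FOX01 and TCF3E2A, assay names that the gene table does not hold and that were read as the listed Foxo1 and Tcf3. With Ly86, 2 of the 5 were called positive (median log2 odds ratio 1.05), beside 3.06% of all pairs, while FOX01 (0.64 ± 0.94; adjusted p = 0.557) and TCF3E2A (-0.59 ± 1.18; adjusted p = 0.629) were not and differed in sign. With Cd180 (median -0.21) and CD284 (-0.40) none of the 5 was called, and the median of all 1176 pairs was 0.11. Of 15 stem and multipotent genes 4 were on the panel and 3 entered. With Ly86, 2 of 3 were called negative (median -2.24), beside 1.7% of all pairs, and with Cd180 (0.50) and CD284 (0.91) none. The myeloid list had 5 genes in the test, the dendritic and macrophage list 4 and the T lymphoid list 3, with none called for any of the 3 genes. Of the 42 genes listed for the TLR and RP105 pathway, from ligand-binding partners to signalling adaptors, 2 entered the test beside CD284, and these were Cd180 and Ly86 themselves.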

How the data were processed

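The authors sorted single cells into lysis buffer, ran reverse transcription and pre-amplification in the well with all 96 assays and read the products on a microfluidic qPCR array, per the labels' protocols. The deposited values are Ct, negative log2 amounts that the authors did not normalize, with 40 for no product, and how the instrument software set them was not analysed here. Of the 96 assay names 47 matched a symbol and 34 a synonym in the RefSeq gene table of GRCm38.p6, among them MD.1 as MD-1; 15, CD284 among them, keep the name of the file. FOX01 and TCF3E2A were counted with the B lymphoid list after the values were seen. All 384 columns were tied to samples by title.

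A single-cell well was kept with a product for more than 50% of 4 reference genes and for no fewer assays than 50% of the plate median. Of the 13 left out, 10 had no product at all. A gene entered the pair test if found in 5% to 95% of kept cells and in fewer than 4 no-RT wells, and a plate entered a pair if both genes were found in some but not all of its cells, so that P2 gives no value for CD284. Levels were compared where each class had at least 3 cells on at least 3 plates. The fits were two-sided limma 3.58.1 in R 4.3.3 with 1 value a plate, Benjamini-Hochberg adjustment over the whole table and a threshold of 0.05; cells were not replicates. The code was tested on simulated data. The genes named are, for each of the 3, the 5 highest and 5 lowest by log2 odds ratio and the B lymphoid and stem genes that entered. The 3 genes, the lists and the tests were chosen with earlier results of these data known.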

Additional observations from a re-analysis of the deposited data

Results flagged for a closer look

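In groups of 4 plates, 2 values stood apart from the other 3 by Dixon's criterion at 95%, which chance meets in about 1 group in 20. The groups were the shares, mean levels and pooled wells of the 3 genes and their named pairs. Over that many groups some values can stand apart by chance alone. The level of Ly86 in the 10-cell well of P0 was 1.64 cycles above the threshold, against levels of 14.63 to 16.36 in the other 10-cell wells. The log2 odds ratio of Ly86 and Ebf1 was 1.89 on P0 and 0.74 to 0.81 on the other plates.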

How the results depend on the processing

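Pairs called for Ly86 (5 as reported) were 3 with plates centred on their mean pair, 3 with stricter quality control, 6 with a count of 1 added and in both kinds of strata, 7 with genes in 1% to 99% of cells, 7 with no quality control, and 0 to 3 with 1 plate left out. Pairs called for CD284 (1 as reported) were 2 with all 4 plates, 3 with a count of 1 added, 3 with genes in 1% to 99% of cells, 2 with 10% to 90%, 4 with no quality control, 3 in strata by the number of assays, 3 in strata by the reference Ct, and 0 to 2 with 1 plate left out. Pairs called for Cd180 (0 as reported) were 13 with no quality control, which lets in the 10 wells with no product at all. Differences between the 3 genes called (5 as reported) were 3 with all 4 plates, 13 with a count of 1, 19 with no quality control, 14 and 11 in strata by assays and by reference Ct, 1 with stricter quality control, and 1 to 3 with 1 plate left out. With all 4 plates the P2 value of a CD284 pair is set by the other gene's share and the added count. The cause of the other moves was not tested except where named.

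The detection difference of CD284 on the arcsine scale was 0.28 to 0.44 with 1 plate left out. With the plate as a replicate block no detection call changed. The pair and level tests have 1 value a plate, so no paired fit of them was possible because the plate is itself the unit.

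Signs turned only among values that did not pass the test as reported. With no quality control Cd180 turned to 0.23 with Ly86, 1.10 with Cd72, 0.47 with Gfi1, 0.41 with Ebf1, 0.41 with Ly6d and 0.96 with FOX01, and Ly86 with Fli1 to 0.15. With all 4 plates CD284 turned to -0.25 with Cd180, 0.11 with Pax5 and -0.51 with Cd34. These turns come from the P2 values of CD284, which are set by the other gene's share and the added count. In strata by assays Ly86 with Fli1 was 0.0189. Cd180 with FOX01, near 0 as reported, was 0.0645 with a count of 1, 0.0353 in strata by reference Ct and 0.0165 with stricter quality control. With 1 plate left out the log2 odds ratio of Cd180 ran from -0.51 to 0.0794 with Ly86, from -0.74 to 0.0719 with Gfi1, from -0.45 to 0.30 with FOX01, from -0.0191 to 0.79 with TCF3E2A and from -0.13 to 0.92 with Cd34, that of Ly86 with Fli1 from -0.28 to 0.14 and that of CD284 with Cd5 from -0.12 to 2.82. Among levels, Ly86 was at -0.15 by Cd180 and -0.0641 by CD284 after centring on reference genes, and CD284 by Ly86 at 0.12 with plate medians. With 1 plate left out the level of Cd180 by Ly86 ran from -0.11 to 0.30 and that of CD284 by Ly86 from -0.43 to 0.17. A missing product means only that a transcript was not detected at the unknown sensitivity of its assay.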
